A study of Mus musculus with 8 samples.

Results

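The Schlafen genes of the mouse form a family of related genes that sit side by side on chromosome 11. Members were the rows of the deposited expression table whose gene name, split at commas, holds Slfn1, Slfn2, Slfn3, Slfn4, Slfn5, Slfn8 or Slfn9. Of these 7 members, 6 had a row, in 13 of 39330 loci, against 15578 gene names in the whole table. Slfn3 had no row. Slfn9 was counted only in 1 joint locus with Slfn8 and Slfn10-ps, and Slfn4 had a failed estimate in 3 of 8 libraries. The family is therefore described by 5 loci, of which 4 (Slfn1, Slfn2, Slfn5 and the joint locus) were estimated in all 8 libraries.

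RNA was sequenced from Gr-1+ cells, those that carry the myeloid surface antigens Ly6G or Ly6C and were taken with magnetic beads. All mice were of the C57BL/6 strain, aged 8 to 16 weeks, of both sexes, and had been wounded on the back, so that the marrow groups also came from wounded mice as far as the labels describe it. The 4 groups were marrow cells of nondiabetic Lepr +/- mice, marrow cells of diabetic Lepr -/- mice, and cells of the wounds of each genotype taken 3 days after 8 mm excisions with a 2 mm border of skin. The nondiabetic controls carry 1 disrupted copy of the leptin receptor gene. Each group had 2 libraries, each from a pool of 5 mice, so that p-values measure the spread between pools and not between mice.

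Levels are FPKM, fragments per kilobase of transcript scaled to the mapped fragments of the library, given per library and as mean ± SD (n = 2 pools). Differences are on the log2(FPKM + 1) scale with their standard error (SE) from limma, with Benjamini-Hochberg adjustment over 13457 names, and a difference was called at an adjusted p under 0.05. The sum of FPKM over all loci ranged from 1544800 to 2788450, and 11375 to 12380 names reached an FPKM of 1. Depth is unknown. The sorted antigen Ly6g averaged 854 FPKM in the nondiabetic marrow pools, 568 in those of diabetic marrow, 18.2 in nondiabetic wound, and 12.6 in the diabetic wound pools, so that the defining marker of neutrophils was low in wound cells. The summed levels of 7 keratinocyte markers were 1.39 to 4.09 FPKM in marrow libraries, 245 to 250 in nondiabetic and 604 to 622 in diabetic wound libraries. In such bulk samples, fewer cells of a type and less RNA per cell cannot be told apart.

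Schlafen proteins share a conserved domain of the amino-terminal part and are known from mouse and human leukocytes, where type I interferon induces many of the genes. In the mouse they are grouped by length. The short Slfn1 and Slfn2 consist of little more than the shared core. Slfn3 and Slfn4 are of intermediate length, and Slfn5, Slfn8 and Slfn9 are long forms that add a helicase-like carboxy-terminal region. Slfn1 and Slfn2 are known for restraining growth and keeping lymphocytes quiescent in mice, mouse Slfn2 has been described to shield tRNAs from cleavage in T cells, and Slfn4 is a gene of myeloid cells.

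In the mm9 annotation the 7 members spanned 263806 bases, chr11:82764851-83028656. From the left the order was Slfn5 (chr11:82764851-82776443, plus strand), Slfn9 (chr11:82793131-82805332, minus), Slfn8 (chr11:82815660-82834312, minus), Slfn2 (chr11:82878614-82884180, plus), Slfn1 (chr11:82930351-82936172, plus), Slfn4 (chr11:82988688-83003723, plus) and Slfn3 (chr11:83004832-83028656, plus). The related Slfn10-ps (chr11:82841632-82853544, minus) lies between Slfn8 and Slfn2. Coding lengths followed the known classes, with 1011 bases for Slfn1, 1134 for Slfn2, 1551 for Slfn3, 1806 for Slfn4, 2652 for Slfn5 and 2730 for both Slfn8 and Slfn9.

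Close copies limit which members could be told apart. The coding sequences of Slfn3 and Slfn4 were 95.3% identical over 1524 aligned bases, and those of Slfn8 and Slfn9 92.7% over 2733. Of all 50-base words in its annotated transcripts, Slfn5 shared 0% with any other member or Slfn10-ps, Slfn1 0.606%, Slfn2 4.27% and Slfn4 8.07%, while Slfn3 shared 13.9%, Slfn9 14.2% and Slfn8 14.6%. The locus of the Slfn4 row, chr11:82988643-83074417, contains the whole annotated span of Slfn3, so whether reads of Slfn3 entered the Slfn4 value could not be determined. The joint locus, chr11:82791846-82854497, covers Slfn9, Slfn8 and Slfn10-ps, and its level cannot be divided among them.

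The promoter windows are shown with short motifs picked from them, so the division of the members into 2 kinds follows from that choice. Windows are the 250 bases before the start of each gene from RefSeq (GRCm38.p6), in which all 7 members were found. The motifs were searched on both strands and were chosen after the sequences had been read. The shares of all windows given beside them are therefore a description and no test. The core of the interferon-stimulated response element, that is GAAA, any 2 bases and GAAA again, or its reverse, was present in the windows of Slfn5, Slfn8 and Slfn9, 3 of 7 members, against 2.98% of 32851 windows of all genes. It is in capitals in the following sequences, given 5′ to 3′ on the strand of the gene, of Slfn5 (chr11:82951852-82952101, plus strand), Slfn8 (chr11:83020811-83021060, minus strand) and Slfn9 (chr11:82991831-82992080, minus strand).
Slfn5: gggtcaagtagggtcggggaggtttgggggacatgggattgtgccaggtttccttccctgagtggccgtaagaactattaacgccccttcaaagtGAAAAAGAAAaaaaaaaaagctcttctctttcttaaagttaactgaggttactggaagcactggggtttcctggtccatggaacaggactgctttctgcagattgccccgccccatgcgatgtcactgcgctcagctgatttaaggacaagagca
Slfn8: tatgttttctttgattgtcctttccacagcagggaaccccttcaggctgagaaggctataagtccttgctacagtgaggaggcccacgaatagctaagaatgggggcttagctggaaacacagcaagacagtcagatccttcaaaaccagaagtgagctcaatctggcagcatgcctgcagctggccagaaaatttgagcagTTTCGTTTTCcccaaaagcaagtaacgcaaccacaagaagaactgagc
Slfn9: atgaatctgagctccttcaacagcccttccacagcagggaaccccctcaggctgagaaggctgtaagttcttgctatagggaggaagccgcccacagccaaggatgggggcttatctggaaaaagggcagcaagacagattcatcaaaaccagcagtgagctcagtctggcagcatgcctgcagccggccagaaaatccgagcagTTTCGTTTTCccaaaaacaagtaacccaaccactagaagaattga
The match began 155 bases before the start in Slfn5, 48 in Slfn8 and 45 in Slfn9. The Slfn8 and Slfn9 windows were 85.1% identical over 242 aligned bases, so these are near copies and not independent occurrences.

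The other 4 members held the ETS element CAGGAAGT, reverse ACTTCCTG, present in 2.69% of all windows. Stretches of 80 bases around it show it in capitals, on the plus strand, for Slfn1 (chr11:83116710-83116789), Slfn2 (chr11:83065021-83065100), Slfn4 (chr11:83175077-83175156) and Slfn3 (chr11:83191250-83191329), the last with a copy in each orientation.
Slfn1: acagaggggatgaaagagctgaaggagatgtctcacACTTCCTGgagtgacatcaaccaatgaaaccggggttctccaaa
Slfn2: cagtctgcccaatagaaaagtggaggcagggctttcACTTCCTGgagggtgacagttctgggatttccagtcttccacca
Slfn4: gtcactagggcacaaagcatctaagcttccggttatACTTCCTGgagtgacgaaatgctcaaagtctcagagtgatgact
Slfn3: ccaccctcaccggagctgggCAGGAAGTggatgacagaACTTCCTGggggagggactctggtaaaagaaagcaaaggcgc
The element began 74 bases before the start in Slfn1, 73 in Slfn4, 55 in Slfn2, and 60 and 42 in Slfn3. The STAT element TTCNNNGAA was found in 0 of 7 members and 7.02% of all windows, and the NF-kB element in 0 of 7 and 0.14%. A match is a description of the letters, and no match says only that these letters were not in the window.

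Slfn4 was the most abundant member wherever it was estimated. It was listed at 1140 FPKM in nondiabetic marrow pool 2, at 995 and 1005 in the diabetic marrow pools and at 307 and 299 in the diabetic wound pools. Estimates failed in nondiabetic marrow pool 1 and in both nondiabetic wound pools, and these values are not used. In the diabetic mice the marrow pools were above the wound pools with no overlap. Slfn4 lay above 98.9% of names in diabetic marrow and above 97.7% in diabetic wound by mean level. It took 84.2% to 86.3% of the summed FPKM of the 5 loci in the 3 marrow libraries with an estimate, and 62.6% to 62.7% in the diabetic wound libraries.

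Slfn2 came next in every group. Its level was 92.6 and 96.0 FPKM in the nondiabetic marrow pools, 84.7 and 84.6 in those of diabetic marrow, 122 and 125 in nondiabetic wound, and 119 and 117 in the diabetic wound pools. Both wound groups were above both marrow groups, and the groups of the wound lay close to each other. Slfn2 was among the more abundant genes throughout, above 92.7% to 95.7% of names.

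Slfn1 showed the opposite order of the tissues. It was at 59.4 and 64.1 FPKM in the nondiabetic marrow pools, 50.2 and 50.3 in those of diabetic marrow, 13.6 and 13.4 in nondiabetic wound, and 10.5 and 9.84 in the diabetic wound pools. All marrow libraries lay above all wound libraries, and within each tissue the nondiabetic pools lay above the diabetic pools. A further Slfn1 row on the opposite strand of the same locus held 1.13 to 2.26 FPKM and is not used.

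Slfn5 had 2 loci, and both are given because they do not give the same account. The locus with the higher mean, chr11:82777441-82778353, has 912 bases, no assigned strand, and begins 998 bases past the annotated end of the gene. RefSeq gives Slfn5 a longer span of 13502 bases in GRCm38.p6 against 11593 in the annotation of mm9. This downstream locus was at 18.8 and 20.1 FPKM in the nondiabetic marrow pools, 5.54 and 7.04 in those of diabetic marrow, 39.3 and 39.6 in nondiabetic wound, and 24.4 and 23.8 in the diabetic wound pools. The locus on the annotated strand, chr11:82765555-82777322, was at 12.0 and 12.5 FPKM, 5.12 and 5.36, 29.0 and 29.5, and 11.4 and 11.3 in these groups as just listed. Both loci were highest in nondiabetic wound and lowest in diabetic marrow, and no groups overlapped at the downstream locus. At the annotated-strand locus the diabetic wound pools fell below the nondiabetic marrow pools, whereas at the downstream locus they lay above them.

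The joint locus of Slfn8, Slfn9 and Slfn10-ps was at 34.2 and 33.8 FPKM in the nondiabetic marrow pools, 17.6 and 17.9 in those of diabetic marrow, 41.9 and 42.7 in nondiabetic wound, and 28.5 and 28.3 in the diabetic wound pools. As at the annotated-strand locus of Slfn5, the order from high to low was nondiabetic wound, nondiabetic marrow, diabetic wound and diabetic marrow, with no overlap between groups. Slfn8 alone was also the name of 6 low loci of unknown strand, listed with the same coordinates as the joint locus. Their summed FPKM was 6.54 and 6.84 in the nondiabetic marrow pools, 5.84 and 5.29 in those of diabetic marrow, 50.4 and 46.5 in nondiabetic wound, and 8.98 and 17.9 in the diabetic wound pools. The diabetic wound pools differed most between themselves in these 6 loci. Slfn10-ps had a further locus of its own with at most 8.47 FPKM, in nondiabetic wound, and the pseudogene Slfn14-ps was at 1.19 to 1.36 FPKM in marrow libraries and at 0 to 0.0111 in wound libraries.

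**Figure D1:**
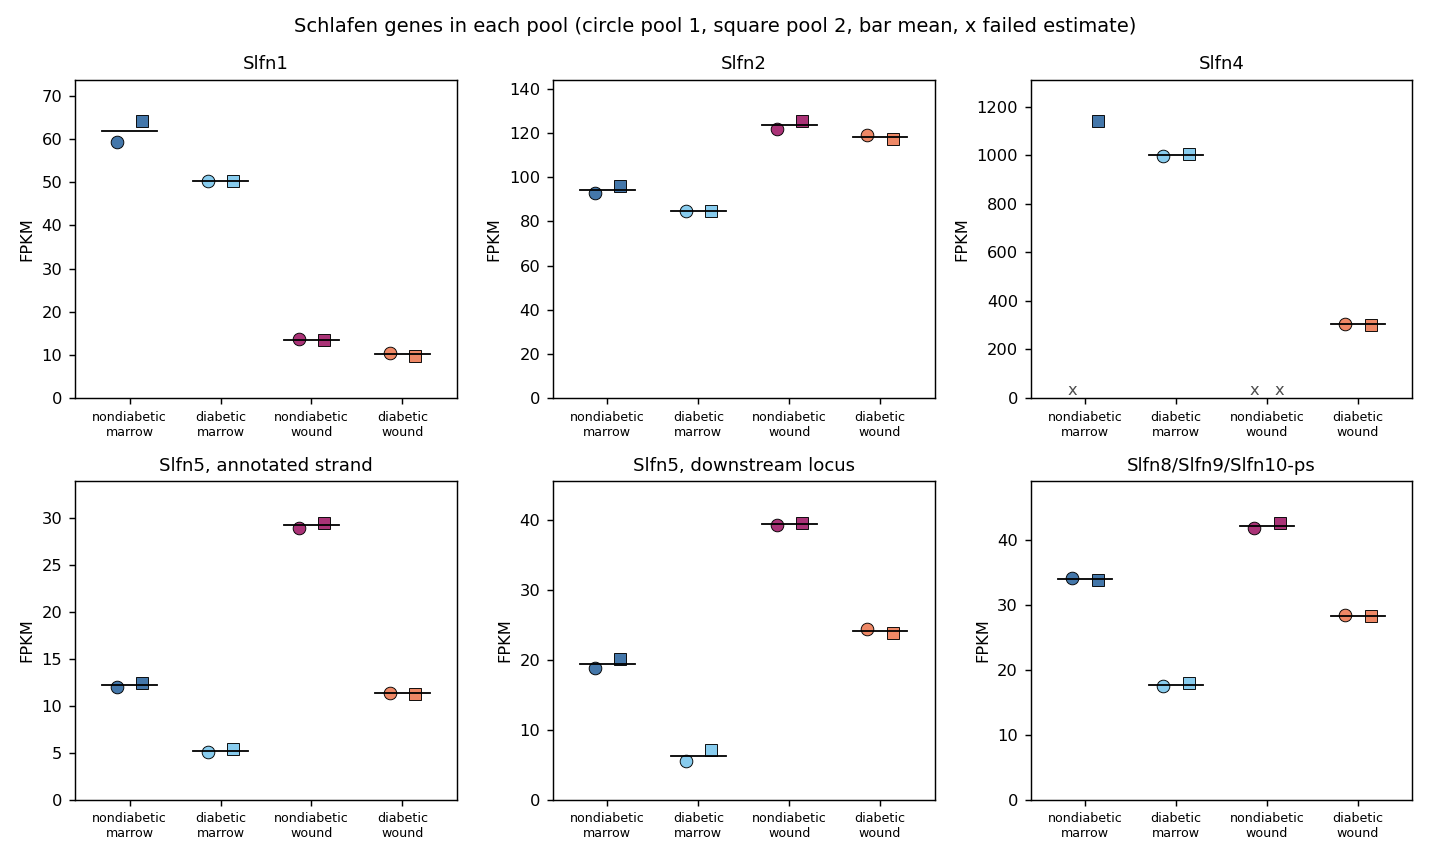
FPKM of the Schlafen loci in each of the 8 libraries by group, on a linear axis from 0, with circles for pool 1, squares for pool 2, bars for the mean of 2 pools and an x for a failed Slfn4 estimate. Within each genotype Slfn1 lies higher in marrow (50.2 to 64.1 against 9.84 to 13.6), while Slfn2, both Slfn5 loci and the joint locus lie higher in wound.

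By mean level the members ranked Slfn2, Slfn1, the joint locus and Slfn5 in both marrow groups, below Slfn4 where it was estimated. In nondiabetic wound the order was Slfn2 (123 ± 2.64), the joint locus (42.3 ± 0.584), Slfn5 (39.4 ± 0.209 at the downstream locus) and Slfn1 (13.5 ± 0.0819). In diabetic wound it was Slfn2 (118 ± 1.31), the joint locus (28.4 ± 0.115), Slfn5 (24.1 ± 0.409) and Slfn1 (10.2 ± 0.466). No neighbours in these orders overlapped between pools. On the annotated strand, Slfn5 was at 29.3 ± 0.37 in nondiabetic wound and 11.4 ± 0.1 in diabetic wound, which leaves the order unchanged.

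Of the summed FPKM of the 4 loci other than Slfn4, Slfn1 made up 29.0% to 30.0% in nondiabetic marrow and 31.4% to 31.8% in diabetic marrow, against 6.08% to 6.27% and 5.50% to 5.76% in the wound groups. The shares of Slfn2, Slfn5 and the joint locus moved the other way within each genotype. Parts of a sum must rise together when another part falls. Slfn5 made up 9.18% to 9.38% in nondiabetic marrow, 3.51% to 4.40% in diabetic marrow, 17.9% to 18.2% in nondiabetic wound and 13.3% to 13.4% in diabetic wound. Slfn2 was the largest of the 4 parts in every library, from 44.9% in a nondiabetic marrow pool to 65.4% in a diabetic wound pool.

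**Figure D2:**
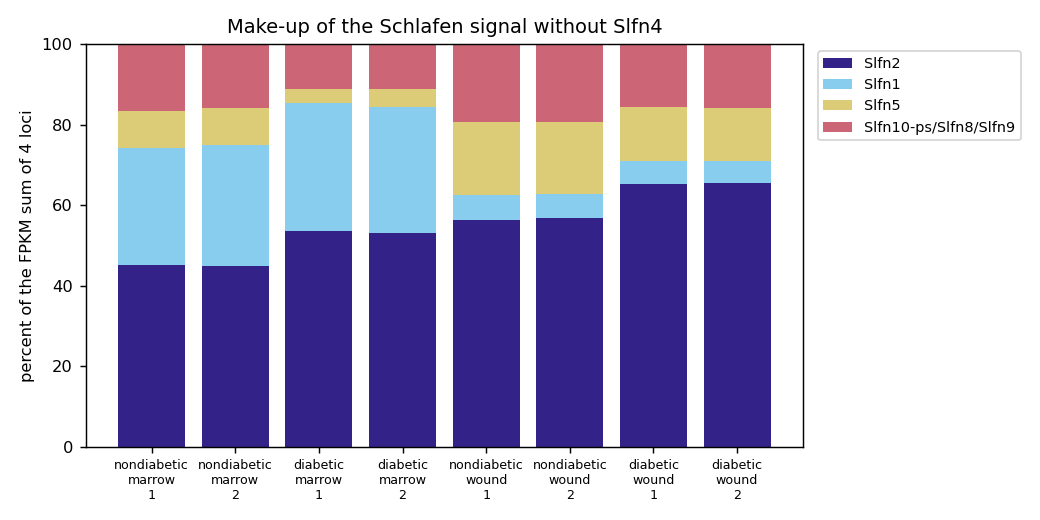
Percent of the summed FPKM of Slfn2, Slfn1, Slfn5 (downstream locus) and the joint Slfn10-ps/Slfn8/Slfn9 locus in each library, with Slfn4 left out because 3 estimates failed. The Slfn1 part is 29.0% to 31.8% in marrow libraries and 5.50% to 6.27% in wound libraries.

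The wound cells were compared with the marrow cells within each genotype. Slfn1 was lower in wound cells, and Slfn2, Slfn5 and the joint locus were higher. All 4 completely estimated loci were called in nondiabetic mice, 3 higher and 1 lower, where 85.2% of all tested names were called, 32.1% higher and 53.1% lower. In diabetic mice all 4 were called in the same directions, against 84.2% of all names, 37.1% higher and 47.1% lower. A call as such is therefore near the background in these comparisons. With a difference of at least 1 also required, 1 of 4 loci passed in nondiabetic mice against 48.3% of names, and 2 of 4 in diabetic mice against 46.7%. The nondiabetic count turns on Slfn5, whose downstream locus was just under that size (0.98) and whose annotated-strand locus was above it (1.19).

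Slfn1 differed by -2.11 (SE 0.049, adjusted p = 2.56e-07) in nondiabetic and by -2.20 (SE 0.049, adjusted p = 2.16e-07) in diabetic mice. These differences were larger in absolute size than those of 85.2% and 86% of all tested names. Slfn4 differed by -1.72 (SE 0.0694, adjusted p = 6.8e-05 over 13918 names) between diabetic wound and marrow, in a fit with failed estimates set to missing, where 84.4% of names were called. No Slfn4 difference can be given in nondiabetic mice.

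Slfn5 was higher in wound by 0.98 (SE 0.0964, adjusted p = 0.000136) in nondiabetic and by 1.79 (SE 0.0964, adjusted p = 8.49e-06) in diabetic mice at the downstream locus. On the annotated strand it was higher by 1.19 (SE 0.0373, adjusted p = 6.69e-07) and by 0.99 (SE 0.0373, adjusted p = 1.55e-06), so that the direction was shared by both loci and the order of sizes was not. The joint locus rose by 0.30 (SE 0.0293, adjusted p = 0.000123) and by 0.65 (SE 0.0293, adjusted p = 3.93e-06). Slfn2 rose by 0.39 (SE 0.0366, adjusted p = 0.000116) and by 0.47 (SE 0.0366, adjusted p = 4.51e-05). The small rises are to be read beside the median of all names, which was -0.38 in nondiabetic and -0.18 in diabetic mice, and 0.06 and 0.08 after median-ratio scaling. Under that scaling the rises in nondiabetic and diabetic mice were 0.91 and 0.76 for Slfn2, 0.82 and 0.92 for the joint locus and 1.49 and 2.05 for the downstream locus of Slfn5, and the Slfn1 differences were -1.60 and -1.93.

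Slfn8 alone, represented by the 1 of its 6 low loci with the highest mean, rose by 3.04 (SE 0.315, adjusted p = 0.000178) and by 1.37 (SE 0.315, adjusted p = 0.00739). That mean is set mostly by nondiabetic wound (15.4 ± 1.57 FPKM), so the choice of locus favours a rise there. In diabetic mice not all 6 loci were higher in wound by mean level. Slfn14-ps fell by 1.17 (SE 0.0588, adjusted p = 5.94e-06) and fell by 1.20 (SE 0.0588, adjusted p = 5.54e-06). It passed the filter of 1 FPKM only through marrow libraries (1.19 to 1.36 FPKM, against 0 to 0.0111 in wound libraries). Its fall therefore follows from the filter and is not read as a result. Cell types of the wound and marrow samples moved with the differences of the Schlafen loci. The 7 summed neutrophil markers (5 of 12 listed had failed estimates) went from 22762 to 23598 FPKM in nondiabetic marrow to 618 to 703 in nondiabetic wound, and from 18312 to 18558 to 480 to 489 in diabetic mice. The 7 summed macrophage markers went from 51.0 to 51.6 FPKM to 278 to 288, and from 78.0 to 80.3 to 341 in both pools. The part of these cells in the Schlafen differences was not tested.

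**Figure D3:**
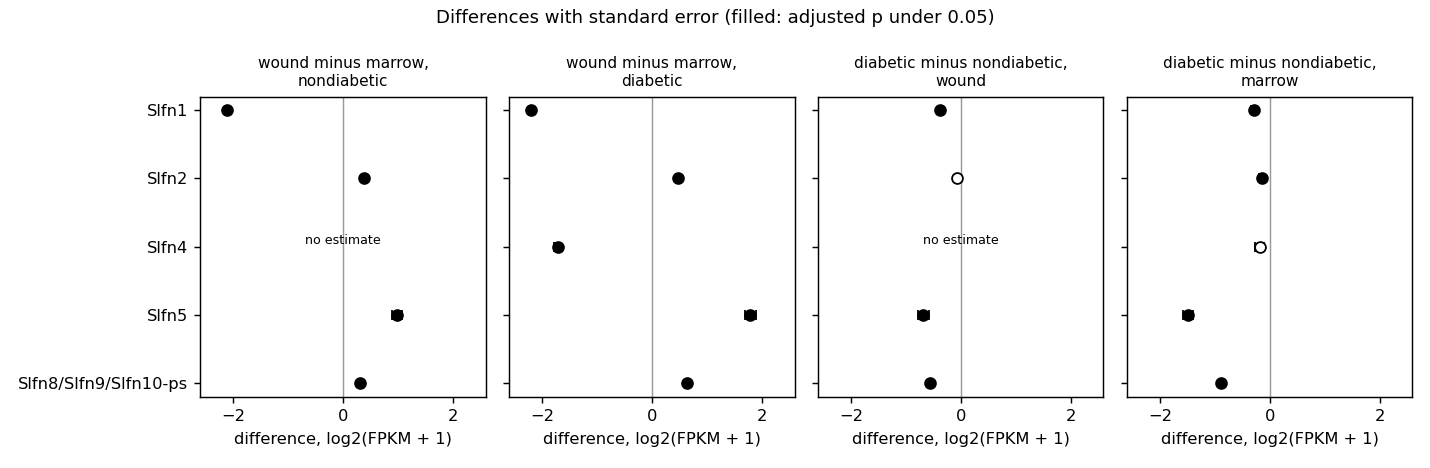
Differences of the Schlafen loci on the log2(FPKM + 1) scale with the SE of the fit, in 4 comparisons; filled points have an adjusted p under 0.05, and Slfn5 is the downstream locus. Slfn1 lies at -2.11 and -2.20 between wound and marrow while Slfn5 lies at 0.98 and 1.79, and all points for diabetes lie below 0, with Slfn2 in wound (-0.06) and Slfn4 in marrow (-0.19) not called.

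Diabetic and nondiabetic mice were then compared within each tissue, and among the 4 complete loci the long members had the largest falls. In marrow all 4 loci were lower in the diabetic mice and were called, where 31.7% of all names were called lower and 44.8% in either direction. In wound 3 of 4 loci were called, all lower, where 20.7% of names were called lower and 51.7% in either direction. With a difference of at least 1 also required, 1 of 4 loci passed in marrow against 4.24% of names, and 0 of 4 in wound against 5.26%, where the annotated-strand locus of Slfn5 would pass (-1.29). The median difference of all names was -0.09 in marrow and 0.07 in wound.

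Slfn5 fell by 1.49 in marrow (SE 0.0964, adjusted p = 0.00024) at the downstream locus, a difference larger in absolute size than that of 97.8% of names, and fell by 1.08 on the annotated strand (SE 0.0373, adjusted p = 2.52e-05). In wound it fell by 0.69 (SE 0.0964, adjusted p = 0.00239) and, on the annotated strand, fell by 1.29 (SE 0.0373, adjusted p = 1.63e-05). The joint locus of Slfn8, Slfn9 and Slfn10-ps fell by 0.90 in marrow (SE 0.0293, adjusted p = 2.55e-05), more in absolute size than 93.7% of names, and fell by 0.56 in wound (SE 0.0293, adjusted p = 8.3e-05). These 2 loci hold the members whose windows printed above carry the GAAA repeat, a pairing that was noticed after both were known and has no test.

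Slfn1 fell by 0.29 in marrow (SE 0.049, adjusted p = 0.00581; -0.15 with adjusted p = 0.033 after median-ratio scaling) and fell by 0.38 in wound (SE 0.049, adjusted p = 0.00177). Slfn2 differed by -0.15 in marrow (SE 0.0366, adjusted p = 0.0193), a call that was lost after median-ratio scaling (-0.02, adjusted p = 0.729) and quantile normalization (-0.06, adjusted p = 0.191). It was also lost without nondiabetic marrow pool 2 (adjusted p = 0.0732), diabetic marrow pool 1 (0.0793) or diabetic marrow pool 2 (0.0758). In wound Slfn2 differed by -0.06 (SE 0.0366, adjusted p = 0.192), and by -0.17 under either scaling (adjusted p = 0.00428 and 0.00763), which made it a call. Slfn2 thus has no call in either tissue that holds under every scaling.

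Slfn4 differed by -0.19 between diabetic and nondiabetic marrow (SE 0.0853, adjusted p = 0.165 over 13900 names), with only pool 2 on the nondiabetic side, where 44.8% of names were called. Slfn8 alone differed by -0.06 in marrow (SE 0.315, adjusted p = 0.909) and fell by 1.73 in wound (SE 0.315, adjusted p = 0.00612), where the large fall rests on pools at 2.83 and 5.36 FPKM against 16.6 and 14.3. The locus was chosen by its mean level, which these nondiabetic wound pools raised most. Slfn10-ps differed by -0.69 in marrow (adjusted p = 0.181) and -0.66 in wound (adjusted p = 0.183).

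Cell type markers also differed between the genotypes. In marrow the summed monocyte markers (6 of 7, without Csf1r) were at 3127 to 3239 FPKM in nondiabetic and 1884 to 1915 in diabetic mice, and 5 erythroid markers at 6225 to 6259 and 14016 to 15053. The monocyte sums came mostly from the joint locus Gm10238/Ly6a/Ly6c1/Ly6c2 (means of 2924 and 1714), which holds the sorted antigen Ly6C. The erythroid sums came mostly from Hbb-b1 (means of 6199.7 and 14474.5). Of 6 monocyte markers tested in marrow 5 fell and 0 rose, and of 5 erythroid markers 2 rose and 1 fell. There 31.7% of all names were called lower and 13.1% higher. In wound the 6 dendritic cell markers were at 142 to 147 FPKM in nondiabetic and 55.5 to 57.8 in diabetic mice, with none at 0, beside the keratinocyte levels given above. The 13 T and NK cell markers summed to 26.7 to 28.1 and 10.7 to 12.5 in wound, mostly through the joint locus Klrb1b/Klrb1c (means of 17.9 and 4.11), and of 11 tested 2 fell, 1 rose and 8 were not called. The part of these cells in the falls of the Schlafen loci was not tested.

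Whether diabetes had the same size of difference in both tissues was tested as wound minus marrow, and 2 of 4 loci were called, where 56.2% of all names were called, 37.8% higher and 18.4% lower. With a difference of at least 1 also required, 0 of 4 passed, against 9.39% of names. The joint locus had a smaller fall in wound, with a difference between the tissues of 0.34 (SE 0.0414, adjusted p = 0.00138), which was 0.10 with adjusted p = 0.0854 after median-ratio scaling. Slfn5 had a smaller fall in wound at the downstream locus (0.81, SE 0.136, adjusted p = 0.00435) and a larger fall in wound on the annotated strand (-0.21, SE 0.0528, adjusted p = 0.0183). The direction for Slfn5 therefore turns with the locus. Slfn1 (-0.09, SE 0.0693, adjusted p = 0.331) and Slfn2 (0.09, SE 0.0517, adjusted p = 0.193) were not called. After median-ratio scaling Slfn1 was called at -0.33 (adjusted p = 0.00602), and Slfn2 turned to -0.16 (adjusted p = 0.0215).

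The genes of the interferon pathway give the setting for these members, since interferon induces many Schlafen genes. Of 29 tested interferon-stimulated genes, a list without Schlafen members, 27 fell and 1 rose with diabetes in marrow, with a median difference of -0.74, and 26 fell and 1 rose in wound, with a median of -1.004, against 31.7% of all names called lower and 13.1% higher in marrow, and 20.7% lower and 31% higher in wound. Oas2, a sensor of double-stranded RNA, averaged 76.8 FPKM in nondiabetic and 26.9 in diabetic marrow, and 32.8 and 10.8 in the wound groups. Isg15, a ubiquitin-like protein, averaged 18.6 and 4.99 FPKM in marrow and 105 and 54.0 in wound. The exception that rose in both tissues was Xaf1, known as an antagonist of an apoptosis inhibitor, by 1.55 in marrow and 1.48 in wound. Between nondiabetic wound and marrow 17 genes of the list were higher in wound and 12 lower, where 32.1% of all names were called higher and 53.1% lower. Slfn1 and Slfn2 had smaller diabetes differences than these medians in both tissues. The joint locus (-0.90) and both Slfn5 loci (-1.49 and -1.08) lay past the median in marrow. In wound the annotated-strand locus of Slfn5 (-1.29) and the Slfn8 locus chosen by highest mean (-1.73) did. The mean of that Slfn8 locus was set mostly by nondiabetic wound, so its choice favours a fall there. The joint locus (-0.56) and the downstream locus of Slfn5 (-0.69) did not reach the median in wound.

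**Figure D4:**
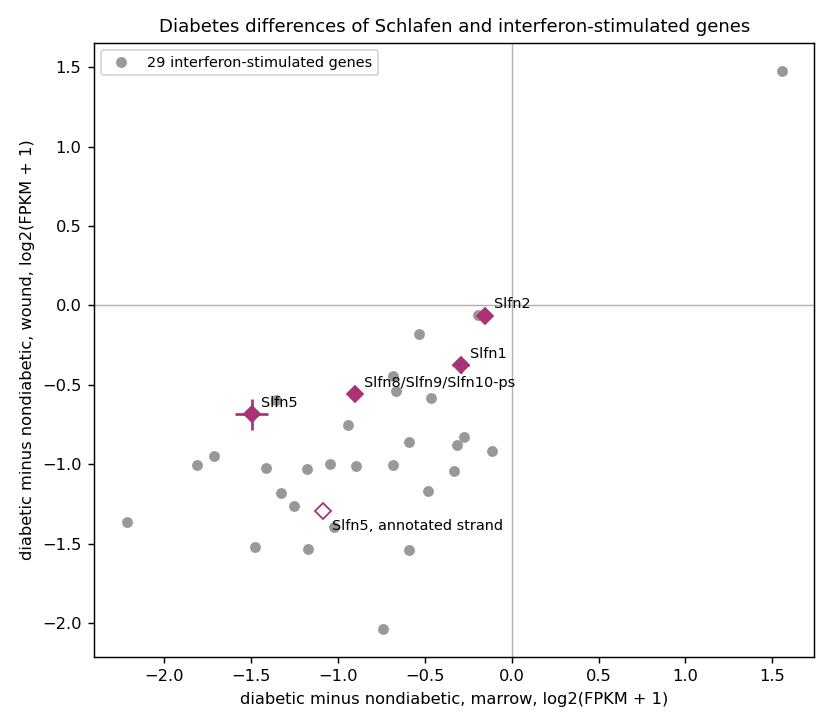
Diabetic minus nondiabetic differences on the log2(FPKM + 1) scale in marrow (horizontal axis) and wound (vertical axis) for 29 interferon-stimulated genes (grey circles) and the Schlafen loci (diamonds with SE, the open one being the annotated-strand locus of Slfn5). Slfn1, Slfn2, Slfn5 and the joint locus lie below 0 on both axes, from -0.15 to -1.49 in marrow, and Xaf1 is the single circle at the upper right.

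Upstream of these genes, Ifnb1, which encodes interferon beta, was at 61.0 and 65.4 FPKM in nondiabetic wound, at 27.8 and 27.2 in diabetic wound and at most 0.118 in any marrow library. It differed by -1.17 between the wound groups (SE 0.0682, adjusted p = 0.000112). Among the 7 interferon genes in the table, 4 were tested. Each was at most 0.241 FPKM in marrow, so all 4 passed the filter of 1 FPKM only through wound libraries. That all 4 rose in wound in both genotypes follows from the filter and is not read as a result. With diabetes 2 fell and 0 rose in wound (20.7% of all names called lower, 31% higher). In marrow 0 were called (44.8% of names). At marrow levels of at most 0.241 FPKM a call was hardly possible, so that count is not read as a result. Ifna1, which fell, passed only through nondiabetic wound (1.12 and 1.08 FPKM, against 0.412 and 0.345 in diabetic wound). Its fall therefore follows from the filter too. Of 15 interferon receptor and signalling genes, 10 fell and 3 rose with diabetes in marrow (median -0.32), where 31.7% of all names were called lower and 13.1% higher. In wound 12 fell and 1 rose (median -0.51), where 20.7% of all names were called lower and 31% higher. The transcription factor gene Irf7 fell by 1.18 in marrow (adjusted p = 2.74e-05) and fell by 0.86 in wound (adjusted p = 5.82e-05), while Irf1, a factor induced by interferon gamma, rose by 0.75 in wound (adjusted p = 6.31e-05) and fell by 0.35 in marrow (adjusted p = 0.000992).

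Lists for the growth and tRNA roles of the family are read against the shares of all names called, given above for each comparison. Of 17 tested proliferation genes, 15 fell and 2 rose in nondiabetic wound against marrow (median -2.57), where 53.1% of all names were called lower and 32.1% higher. With diabetes 15 fell and 1 rose in marrow (median -0.57), and 6 rose and 2 fell in wound (median 0.13), where the shares of all names were 31.7% lower and 13.1% higher in marrow and 20.7% and 31% in wound. Of 13 quiescence regulators, 6 rose and 3 fell with diabetes in marrow (median 0.12), and 8 and 1 after median-ratio scaling. In wound 3 rose and 5 fell (median -0.08), and 3 and 8 after median-ratio scaling (median -0.185). Klf2, a factor of quiescent T cells, averaged 49.8 FPKM in nondiabetic and 297 in diabetic marrow, and 192 and 164 in the wound groups. Of 6 genes of tRNA cleavage and protection, 5 rose and 0 fell with diabetes in wound (median 0.45), and 0 rose and 3 fell in marrow (median -0.13). The angiogenin locus Ang/Rnase4, whose product cleaves tRNAs, averaged 4.69 and 3.82 FPKM in the marrow groups and 26.8 and 39.4 in the wound groups.

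The 3 genes nearest to each complete locus in profile were taken among 5632 names by the root mean square difference of centred log2(FPKM + 1) over 8 libraries. Slfn1 was nearest to Tmsb4x, which encodes an actin-binding thymosin (0.032), Casp2 (0.0705) and Cbara1 (0.0742). Slfn2 was nearest to Agpat9 (0.0348), Hdlbp (0.0415) and Ing3 (0.0447). The downstream locus of Slfn5 was nearest to Bst2 (0.119), which encodes the interferon-induced membrane protein tetherin, then Cdc42ep2 (0.167) and Upp1 (0.173), and the joint locus to Tex2 (0.147), Sc5d (0.154) and Atox1 (0.169). Bst2 averaged 13.7 FPKM in the nondiabetic marrow pools, 4.75 in those of diabetic marrow, 26.6 in nondiabetic wound, and 17.2 in the diabetic wound pools. It has the order of groups of the downstream locus of Slfn5, which follows from how it was chosen. The annotated-strand locus of Slfn5 has another order. The 8 libraries fall into 4 groups, so that likeness rests on few independent points.

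The loci around the family moved in both directions, as all names did. Within 500 kb of the members there were 27 other named loci, of which 21 were tested. With diabetes 2 rose and 8 fell in marrow, and 6 rose and 7 fell in wound, where 31.7% of all names were called lower and 13.1% higher in marrow, and 20.7% lower and 31% higher in wound. The nearest tested locus on the left was Nle1, which differed by 0.23 in marrow (adjusted p = 0.355) and 0.43 in wound (adjusted p = 0.0984), where its means were 1.48 and 2.36 FPKM. Between wound and marrow of nondiabetic mice, 8 of the 21 rose and 11 fell, where 32.1% of all names were called higher and 53.1% lower.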

How the data were processed

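The authors deposited FPKM per assembled locus with a status for each estimate, made with TopHat and Cufflinks on mm9 per the submitters' processing notes; versions and settings are not given in the sources used here. Of 15578 names, 521 with a status other than OK in any library were left out, and the 13457 names that reached an FPKM of 1 in 2 or more of the 8 libraries were tested. Where a name had several loci, the one with the highest mean stood for it. Strand was inferred from the order of the locus identifiers: 95.4%, 5.18% and 51.0% of named loci in 3 runs lay on plus-strand genes. Values were taken as log2(FPKM + 1) and fitted in limma 3.58.1 (R 4.3.3; trend, not robust) with 4 group means, 4 residual degrees of freedom, 5 contrasts and two-sided tests. For Slfn4 failed values were set to missing. Counts were not used here, so no counting error is given.

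The members, lists and motifs were chosen with earlier results of these data known. Named genes are all members, related Schlafen names, the 3 nearest profiles (names with a mean of at least 10 FPKM in a group), the nearest loci (not all reported here), and from each list at most 4 members, by smallest p; Xaf1 was added after its values were seen. Alternatives were a pseudocount of 0.1 or 5, no filter or one of 5 FPKM in 4 libraries, median-ratio and quantile scaling, no trend, a robust fit, only the groups compared, summed loci, failed estimates kept, a minimum difference of 1, a pool block, and each library left out; the annotated-strand locus and a crossed block were added after seeing the data. The fit was tested on simulated data. Sequences are from RefSeq (GRCm38.p6), read with Python 3.11.15 and aligned with Biopython 1.88; coordinates of loci are mm9. Figures used matplotlib 3.10.9.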

Additional observations from a re-analysis of the deposited data

Results flagged for a closer look

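The test of the difference itself (wound minus marrow, limma, adjusted over 13457 names) called unequal diabetes differences in wound and marrow at 3 Schlafen loci, where 56.2% of all names were called and the median of all names was 0.19 (0.008 after median-ratio scaling). The downstream locus of Slfn5 gave 0.81 (SE 0.136, adjusted p = 0.00435), with the larger fall in marrow, but the annotated-strand locus gave -0.21 (adjusted p = 0.0183), with the larger fall in wound, so the direction for the gene is not settled. The joint locus of Slfn8, Slfn9 and Slfn10-ps gave 0.34 (SE 0.0414, adjusted p = 0.00138), with the larger fall in marrow, and 0.10 (adjusted p = 0.0854) after median-ratio scaling, where the call was lost. Slfn8 alone gave -1.67 (SE 0.445, adjusted p = 0.0224), with the fall in wound, at a low locus of unknown strand listed with the coordinates of the joint locus. That locus was chosen by its mean level, to which nondiabetic wound gave most.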

How the results depend on the processing

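Beside the settings named here, the counts of called Schlafen loci and the Slfn4 differences stayed within 1.5 times or kept their side of the threshold. When a difference of at least 1 on the log2 scale was also required, the called loci numbered 1 and 2 of 4 between wound and marrow (nondiabetic, diabetic), 0 with diabetes in wound, 1 in marrow and 0 for the difference between tissues. The difference between tissues reversed for Slfn2 under median-ratio scaling (-0.16) and quantile normalization (-0.11), and for Slfn5 on the annotated strand (-0.21); with its loci summed it was 0.45. The cause was not tested. Leaving out each library in turn gave 3 to 4 called loci with diabetes in marrow, 3 in wound, 2 for the difference between tissues and 4 in both tissue comparisons, and Slfn4 differences of -1.74 to -1.70 between diabetic wound and marrow and -0.20 to -0.18 in marrow. The last cannot be had without nondiabetic marrow pool 2, and the difference between tissues not from the compared groups alone. With failed estimates kept, Slfn4 differed by -0.997 and -1.72 between tissues and by -0.84 with diabetes in wound. The pool numbers were not taken as pairs: deviations of same-numbered pools correlated at -0.176 to 0.22. With pool number as a replicate block the counts were 4, 4, 3, 4 and 2, the Slfn4 differences were -1.72 and -0.19, and no call changed; the crossed pairing gave the same counts. By Pearson correlation instead, 0 to 2 of the 3 nearest profiles were the same. Only FPKM were available, so depth, and with it the precision of low loci such as the single Slfn8 rows, is unknown.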
